A study of Mus musculus with 2 samples.

Results

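The 39 Hox genes of the mouse were examined in maps of open chromatin from the thymus, where the files list a peak at the promoter of 9 of them in both libraries. The members were all genes that the GENCODE M21 annotation of the mm10 genome types as protein-coding and whose symbol is Hox followed by a, b, c or d and a number, 39 of 21938 protein-coding genes. They lie in 4 clusters, Hoxa with 11 genes on chromosome 6, Hoxb with 10 on chromosome 11, Hoxc with 9 on chromosome 15 and Hoxd with 9 on chromosome 2. The number in the symbol gives the paralogue position, from 1 to 13.

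Chromatin was probed by DNase-seq, in which the enzyme DNase I cuts accessible DNA in nuclei, and stretches with an excess of cuts are reported as peaks. The tissue was whole thymus of 10-day-old female mice of the F1 hybrid strain B6CASTF1/J, which carry 1 chromosome set from C57BL/6J and 1 from CAST/EiJ, with no treatment and no engineered allele named in the labels. The 2 libraries are numbered as biological replicates 1 and 2, come from separately numbered females and share 1 donor identifier. They form 1 group without a control, so no test over samples was possible and differences are described against the other replicate and against the rest of the genome. Replicate 1 had 132737 peaks and replicate 2 had 69798, and their median peak heights were 0.625 and 0.828. The height is the authors' own scaled signal, whose factor is not given in the sources used here, and heights are also set over the median of their library. All 8 thymocyte markers examined, Cd3e, Cd4, Cd8a and Rag1 among them, had a promoter peak in both libraries, against 57.2% of all genes.

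Hox genes encode homeodomain transcription factors that give cells along the body axis their positional identity. Genes at the low-numbered end of a cluster are used early and towards the head, and those at the high-numbered end late and towards the tail. Polycomb complexes keep unused Hox genes closed, the Trithorax-type complex built on Kmt2a keeps used ones active, and CTCF sites divide the clusters into domains. In the blood lineage, Hoxa and Hoxb genes are best known from stem and progenitor cells, and Hoxa3 is required in the embryo for the thymus to form.

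A promoter peak means any peak that reaches into the 500 bp on either side of an annotated start of the gene. Among the Hox genes 12 of 39, or 30.8%, had a promoter peak in replicate 1, against 63.4% over all protein-coding genes. In replicate 2 the count was 9 of 39, or 23.1%, against 57.8% of all genes. The 9 genes of replicate 2 were all among the 12 of replicate 1, so 23.1% of the Hox genes had a peak in both, against 57.2% of all genes. The 27 others had none in either library. Among the 30.8% and 23.1% of Hox genes with a peak, no height reached the median promoter height of all genes with one, which was 4.30 in replicate 1 and 4.07 in replicate 2. The median height of the Hox promoters with a peak was 0.987 in replicate 1 and 0.834 in replicate 2.

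**Figure D1:**
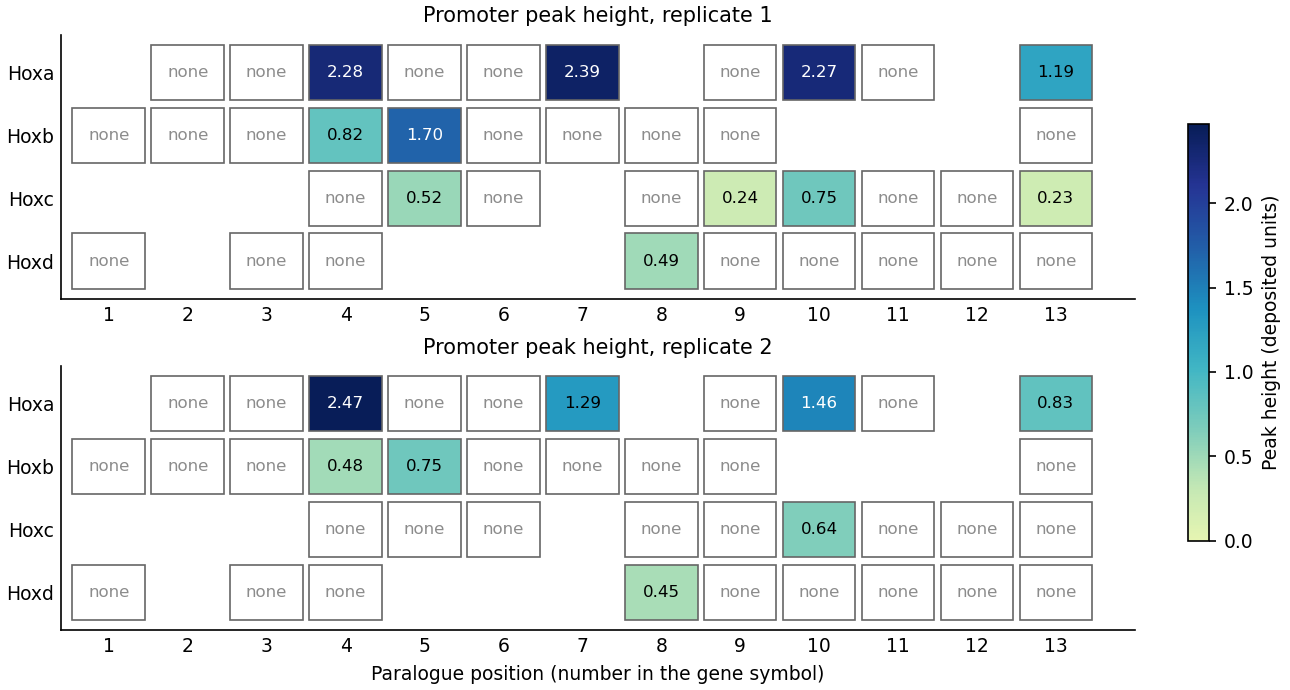
Each box is 1 of the Hox genes described in the text, placed by cluster (rows) and paralogue position (columns), and the number and colour give the height of its highest promoter peak in the deposited units, with "none" where no peak lay within 500 bp of a start. Replicate 1 is above and replicate 2 below. Hoxa4, Hoxa7, Hoxa10 and Hoxa13 have a peak in both panels, and Hoxc5, Hoxc9 and Hoxc13 have one in replicate 1 alone.

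The Hoxa cluster held the most, with 5 of its 11 genes, or 45.5%, called in both replicates. The share was 20% in Hoxb and 11.1% in Hoxc and in Hoxd, so that all 4 clusters lay under the 57.2% of all genes. Hoxa4, which helps pattern the neck vertebrae, had a promoter height of 2.28 in replicate 1 and 2.47 in replicate 2. Hoxa7, a trunk gene also expressed in blood progenitors, had 2.39 and 1.29. Hoxa10, known from blood progenitors and from the uterus, had 2.27 and 1.46. These 3 were the highest Hox promoters in replicate 1, and they also led in replicate 2. They ranked low among genes with a promoter peak, with Hoxa7 at percentile 32.4 in replicate 1 and Hoxa4 at percentile 34.0 in replicate 2, the highest of any member. Hoxa13, which acts in digits and hindgut, stood at 1.19 and 0.834. Hoxa2, Hoxa3, Hoxa5, Hoxa6, Hoxa9 and Hoxa11 had no promoter peak in either library.

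For Hoxa7 and Hoxa10 the height depends on which start is used. Hoxa7 has 5 annotated starts, and its higher peak lies at the outermost, while at the start of its principal transcript the heights were 1.29 and 1.11. Hoxa10 has 4 annotated starts, and its peak lies 135 and 155 bp from the outermost one. No peak lay within 500 bp of the start of the Hoxa10 principal transcript in either replicate, so that with principal starts alone 8 Hox genes had a peak in both libraries. Hoxa9 and Hoxa10, neighbours that are often named together in blood cells, thus had no peak at their principal starts.

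Hoxa3, the member with a part in thymus formation, had no peak within 500 bp of any of its 4 annotated starts. The nearest peak lay 1295 bp away in replicate 1 and 1265 bp away in replicate 2, inside an intron of the long Hoxa3 transcripts. Its height was 1.55 in replicate 1 and 0.869 in replicate 2. The same long transcripts run across Hoxa4. The highest Hoxa4 promoter peak, 128 and 108 bp from the Hoxa4 start, thus lies in an intron of Hoxa3 and outside the Hoxa4 gene.

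In the Hoxb cluster 2 of 10 genes had a promoter peak in both libraries, the adjacent Hoxb4 and Hoxb5. Hoxb4, known for expanding blood stem cells when overexpressed, had heights of 0.817 and 0.481, and its replicate 2 peak is not in the stricter of the deposited peak files. Hoxb5, expressed in blood stem cells and in the gut's nervous system, had 1.70 and 0.747. The other 8, Hoxb1, Hoxb2, Hoxb3, Hoxb6, Hoxb7, Hoxb8, Hoxb9 and Hoxb13, had none.

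In the Hoxc cluster Hoxc10, a gene of the lumbar spinal cord and hindlimb, had a peak in both libraries, at 0.747 and 0.643. Hoxc5, Hoxc9 and Hoxc13 had one in replicate 1 alone, at 0.521, 0.243 and 0.226. All 3 were under the median height of that library, and the Hoxc9 peak is not in its stricter file. Hoxc13, which acts in hair follicles, had the lowest height of any member, and its peak lies just outside the end of the cluster. Hoxc4, Hoxc6, Hoxc8, Hoxc11 and Hoxc12 had no promoter peak.

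In the Hoxd cluster 1 of 9 genes was called, Hoxd8, at 0.492 in replicate 1 and 0.446 in replicate 2. Neither peak is in the stricter files. Hoxd1, Hoxd3, Hoxd4, Hoxd9, Hoxd10, Hoxd11, Hoxd12 and Hoxd13 had none, among them the limb genes at the high-numbered end.

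The sequences below are promoter peaks of the Hoxa, Hoxb and Hoxd clusters that both libraries share. The highest shared promoter of each of these clusters was taken first, whatever its height. Others followed by height, where enough sequence lay outside untranslated regions. They show which bases the deposited list calls footprints, short stretches inside a peak that were protected from cutting as a bound protein would protect them. Each is read from the GRCm38.p6 reference at the bounds of the replicate 1 peak, on the strand of the gene from 5′ to 3′, without untranslated exon sequence, and capitals mark the footprints of replicate 1. The reference is C57BL/6J, and the CAST/EiJ allele was not read.
Hoxa4: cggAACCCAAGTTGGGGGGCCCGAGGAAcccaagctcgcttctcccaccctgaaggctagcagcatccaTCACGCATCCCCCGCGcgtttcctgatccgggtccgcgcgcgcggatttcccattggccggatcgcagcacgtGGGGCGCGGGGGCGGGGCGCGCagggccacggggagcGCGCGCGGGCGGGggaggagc
Hoxa7: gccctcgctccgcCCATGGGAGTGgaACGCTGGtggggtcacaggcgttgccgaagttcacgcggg
Hoxb5: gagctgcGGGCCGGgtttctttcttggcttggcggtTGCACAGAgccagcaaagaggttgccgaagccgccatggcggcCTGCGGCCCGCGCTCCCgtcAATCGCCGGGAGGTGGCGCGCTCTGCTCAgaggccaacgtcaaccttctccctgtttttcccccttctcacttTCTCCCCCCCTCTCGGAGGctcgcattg
Hoxd8: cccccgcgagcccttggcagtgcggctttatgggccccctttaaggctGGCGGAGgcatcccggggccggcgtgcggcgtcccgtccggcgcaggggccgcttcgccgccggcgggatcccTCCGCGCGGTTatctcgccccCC

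The Hoxa4 peak, at chr6:52191881-52192080 on the minus strand, is 73.5% G and C, holds 27 CpG dinucleotides and has 4 footprints over 76 of its 200 bases. The Hoxa7 stretch, at chr6:52221855-52221920 on the minus strand, is the 66 bases outside the exon, with 2 footprints over 18 of them. The Hoxb5 peak, at chr11:96303141-96303340 on the plus strand, has 5 footprints over 80 of 200 bases and 17 CpG dinucleotides. It lies in the antisense gene Hoxb5os. The Hoxd8 stretch, at chr2:74704761-74704904 on the plus strand, has 3 footprints over only 20 of its 144 bases, at 77.1% G and C and 21 CpG dinucleotides. As a share of the bases shown, footprints cover most in Hoxb5 and Hoxa4 and least in Hoxd8, the member with the lowest heights among those shared.

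Other deposited readouts picked out the same genes. An FDR of the local cut rate under 0.05 near a start was listed for 12 Hox genes in replicate 1, against 64.8% of all genes, and for 9 in replicate 2, against 58.8%. These were the genes with a promoter peak, both times. The lowest FDR was 4.2e-39 in replicate 1 and 5.6e-22 in replicate 2, both at Hoxa4. The weakest among the shared members was Hoxd8 in either library, at 0.0031 and 0.017. A footprint near a start was listed for 12 Hox genes in replicate 1, against 60.7% of all genes, and for 8 in replicate 2, against 56.5%. The exception was Hoxb4, with 1 footprint in replicate 1 and none in replicate 2. The 3 lists were made by the authors from the same alignments and are not independent of each other.

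Most members without a promoter peak were far from the window's edge. In replicate 1 their nearest peak lay between 989 and 15782 bp from a start, with a median of 3912 bp, and in replicate 2 between 760 and 45401 bp, with a median of 6108.5 bp. Just inside the window stood Hoxb4, whose peak lay 294 and 312 bp from its start. Just outside it stood Hoxc5 in replicate 2, where the Hoxc10 promoter peak lies 760 bp from the outer Hoxc5 start, and Hoxc6 in replicate 1, at 989 bp.

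By paralogue position the counts are small. Positions 4 to 8 had 5 of 15 genes with a peak in both libraries, and positions 9 to 13 had 3 of 16. These are 33.3% and 18.75%, against 57.2% of all genes. In replicate 1 the same classes had 6 and 5 genes, or 40% and 31.25%, against 63.4% of all genes. At positions 2, 3, 6, 11 and 12 no member of any cluster had a peak in either library. Position 9 had a single member called, Hoxc9, in replicate 1 alone. Position 4 had Hoxa4 and Hoxb4, and position 10 had Hoxa10 and Hoxc10, each in both libraries. Paralogues at the same position are similar in sequence, and how the authors placed reads that fit more than 1 of them is stated neither in the labels nor in the README of the files.

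The share of Hox genes with a peak was also low among promoters of like base composition. A promoter was called CpG-rich where the sequence within 500 bases of at least 1 start had a G and C content of at least 55% and an observed over expected CpG ratio of at least 0.6. Of the Hox genes, 25 of 39 were CpG-rich, and 9 of these, or 36%, had a peak in replicate 1 and 7, or 28%, in replicate 2. Of 10070 other CpG-rich genes, 92.9% and 88.1% had one. Of the 14 CpG-poor Hox genes, 3 and 2 had a peak, or 21.4% and 14.3%, against 38.4% and 32.1% of 11829 other CpG-poor genes. Genes with more starts have more chances to be called: the median number of starts was 2 for Hox genes, against 5 for other CpG-rich genes.

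**Figure D2:**
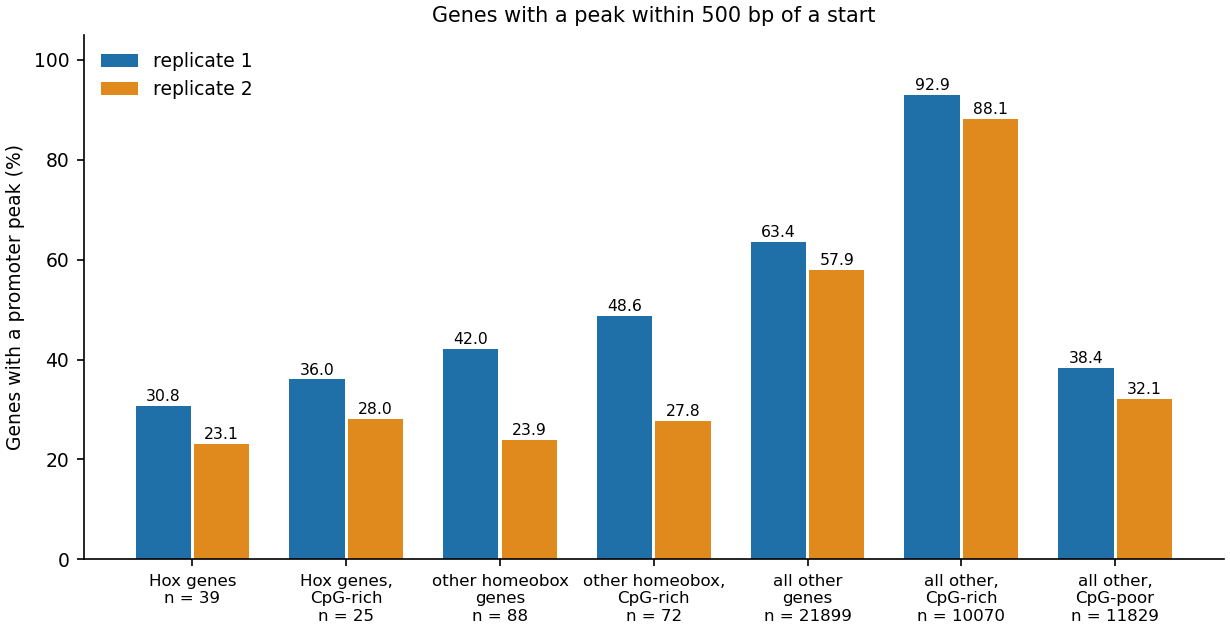
Bars give the percentage of genes in each set with a peak within 500 bp of a start, in replicate 1 and replicate 2, with the number of genes under each set. Hox genes stand at 30.8% and 23.1%, and their CpG-rich members at 36% and 28%, while other CpG-rich genes stand at 92.9% and 88.1%.

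The share of Hox genes with a peak lay nearer to that of other developmental homeobox genes than to that of all genes. Among 88 homeobox genes outside the clusters, such as those of the Dlx, Lhx, Pitx and Nkx families, 37 or 42.0% had a promoter peak in replicate 1 and 21 or 23.9% in replicate 2. In both libraries 18 or 20.5% had one, beside the 23.1% of Hox genes. The median height was 0.987 and 0.834 for Hox genes with a peak and 0.446 and 0.921 for these homeobox genes. Among the 88, the highest promoters were those of Six5, at 7.81 and 7.94, above every Hox promoter, and of Barhl1, at 4.14 and 2.29. The list of 88 leaves out the homeobox families Pbx, Meis and Pknox, given below as cofactors. Of those, Pknox1 and Pbx4 stood above Six5 in both libraries. Six5 is the only one of the 88 above the median promoter height of all genes in either library.

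**Figure D3:**
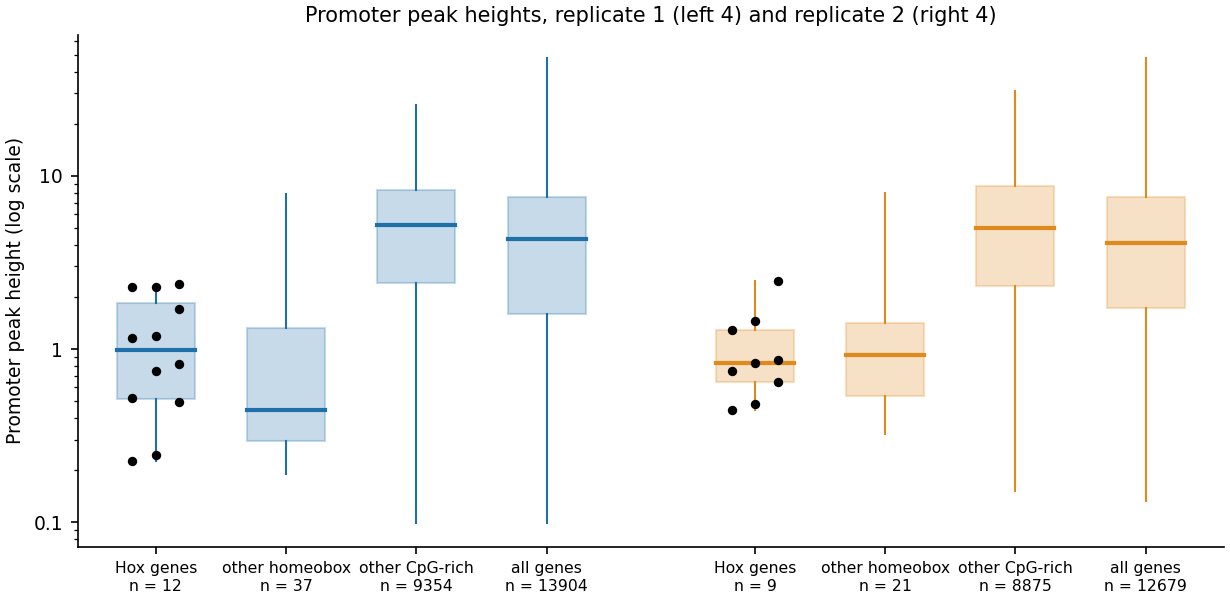
Promoter peak heights on a log scale for genes with a promoter peak: the box spans the quartiles, the thick line is the median, the thin line runs from the lowest to the highest gene, and black points are single Hox genes. Hox promoters lie between 0.226 and 2.39 in replicate 1 and between 0.446 and 2.47 in replicate 2, all under the medians of all genes, 4.30 and 4.07.

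Between the libraries, 8 of the 9 shared Hox promoters stood higher in replicate 1, the exception being Hoxa4, as did 65.0% of 12538 other genes. Dividing by the median height of the library moves all genes alike towards replicate 1, and all 9 Hox promoters and 93.3% of the other genes then stood higher there. Hoxa4 was 3.65 times the median in replicate 1 and 2.98 times in replicate 2, and Hoxb5 was 2.72 and 0.902 times. The median ratio of replicate 2 over replicate 1 was 0.703 for the 9 Hox promoters, against 0.903 for the other genes. The other genes include far higher promoters, and neither this ratio nor the correlations were set against genes of like height. On the log2 scale the heights of the 9 correlated with a Pearson r of 0.875 and a Spearman rho of 0.867 across genes, against 0.953 and 0.955 for the other genes, which is a description of 2 libraries that share their scaling over genes. Of the Hox genes with a replicate 1 peak, 25% had none in replicate 2, against 9.76% of all genes. Among 4493 other genes whose replicate 1 height was no higher than that of Hoxa7, the share without a replicate 2 peak was 30.1%.

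Some genes chosen as markers of cells other than thymocytes also had promoter peaks, beside the 63.4% and 57.8% of all genes that had one. Whether thymocytes themselves carry peaks at these genes was not tested. Of 8 mesenchyme markers, 6 had a promoter peak in replicate 1 and 3 in replicate 2, with Pdgfra at 2.79 and 2.28, Col1a1 at 3.12 and 1.72 and Pdgfrb at 1.04 and 0.788, and with Dcn and Lum without one. Of 8 thymic epithelium markers 3 and 2 had one, none above 0.973, and Foxn1, Psmb11, Krt5, Krt8 and Dll4 had none. Of 5 endothelium markers 2 had one in either library, with Pecam1 at 4.44 and 1.99 and Kdr lower in both. Cdh5, Tek and Tie1 had none. Of 6 blood progenitor markers 3 had one in either library, Kit at 4.96 and 4.46, Hlf at 3.92 and 3.16 and Mecom at 1.22 and 1.23, and Flt3 and Cd34 had none. Of 5 myeloid markers 2 had one. The part of such cells in the Hox peaks was not tested. In whole tissue, a low peak shared by many cells and a high peak in few cells cannot be told apart.

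Over the full length of the 4 clusters pooled, peaks were denser than in the genome. The 4 clusters span 492 kb and held 40 peaks in replicate 1 and 24 in replicate 2. That is 8.13 and 4.88 peaks per 100 kb, against 5.49 and 2.44 in flanks of the same length on either side of each cluster and 4.87 and 2.56 in the genome. The peaks covered 1.47% and 0.906% of the clusters, against 1.41% and 0.497% of the flanks and 1.08% and 0.519% of the genome. Sequence with an FDR of the cut rate under 0.05 made up 2.55% and 1.14% of the clusters, against 2.59% and 0.963% of the flanks and 2.03% and 0.885% of the genome.

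**Figure D4:**
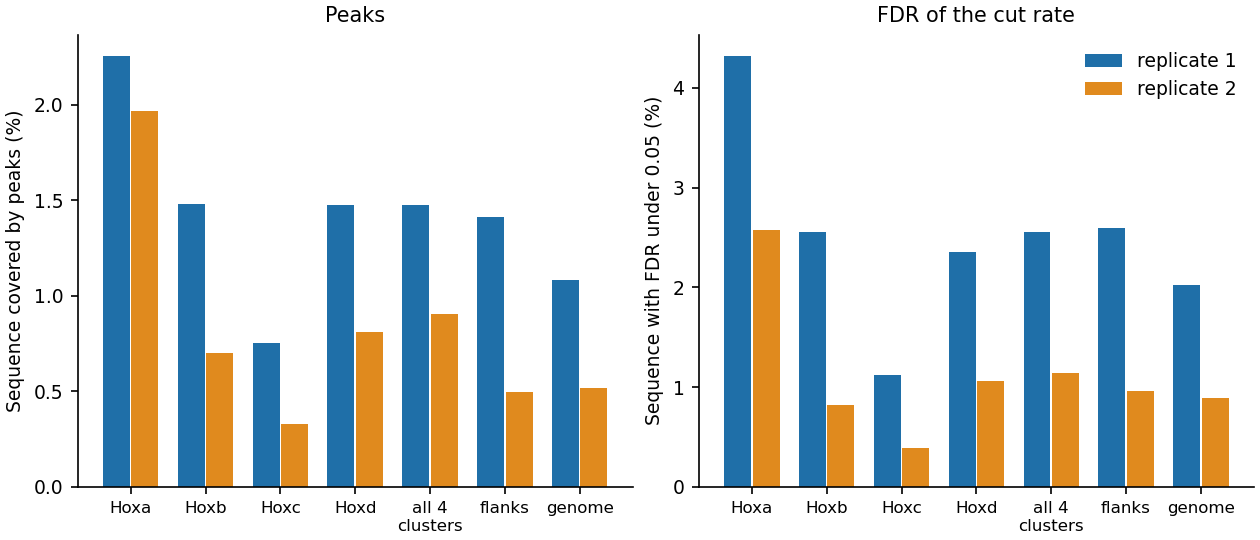
Left, the percentage of sequence covered by peaks, and right, the percentage with an FDR of the cut rate under 0.05, in each Hox cluster, all 4 clusters, their flanks and the genome, for replicate 1 and replicate 2. Hoxa is highest among the clusters and Hoxc lowest in both libraries, and the 4 clusters pooled stand at 1.47% and 0.906% covered by peaks against 1.08% and 0.519% of the genome.

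Among the clusters, Hoxa held the densest peaks and Hoxc the sparsest in both libraries. Hoxa (chr6:52155590-52260880) had 12.3 and 9.50 peaks per 100 kb, while its left flank had 2.85 in replicate 1 and none in replicate 2, and its right flank 2.85 in both. Hoxd (chr2:74668310-74765142) had 8.26 and 5.16, above both its flanks. By sequence with an FDR under 0.05 its left flank stood higher, at 2.48% and 1.41% against 2.35% and 1.06% of the cluster. Hoxc (chr15:102921103-103036852) had 5.18 and 1.73, with 6 and 2 peaks, against at most 1.73 in either flank in replicate 1 and none in replicate 2. Hoxb (chr11:96194316-96368256) had 7.47 and 4.02, against 6.90 and 4.02 in its left flank and 15.5 and 6.32 in its right flank, which reaches into the T cell adaptor gene Skap1. The clusters are richer in G and C than their flanks, with between 48.9% and 50.03% against between 39.5% and 47.7%.

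Many cluster peaks were away from Hox promoters. Of the 40 peaks in replicate 1, 14 lay within 500 bp of a Hox start, and of the 24 in replicate 2, 12 did. By place, 12 and 8 lay in introns and 11 and 6 between annotated genes, and 3 and 1 in coding exons. Of the replicate 2 peaks 22 of 24, or 91.7%, were overlapped by a replicate 1 peak, against 83.2% over the genome, and of the replicate 1 peaks 22 of 40, or 55%, by a replicate 2 peak, against 43.2%. In 20 of the 22 shared places the height was greater in replicate 1, and the median ratio of replicate 2 over replicate 1 was 0.561, against 79.7% and 0.710 over all replicate 1 peaks that replicate 2 overlapped.

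**Figure D5:**
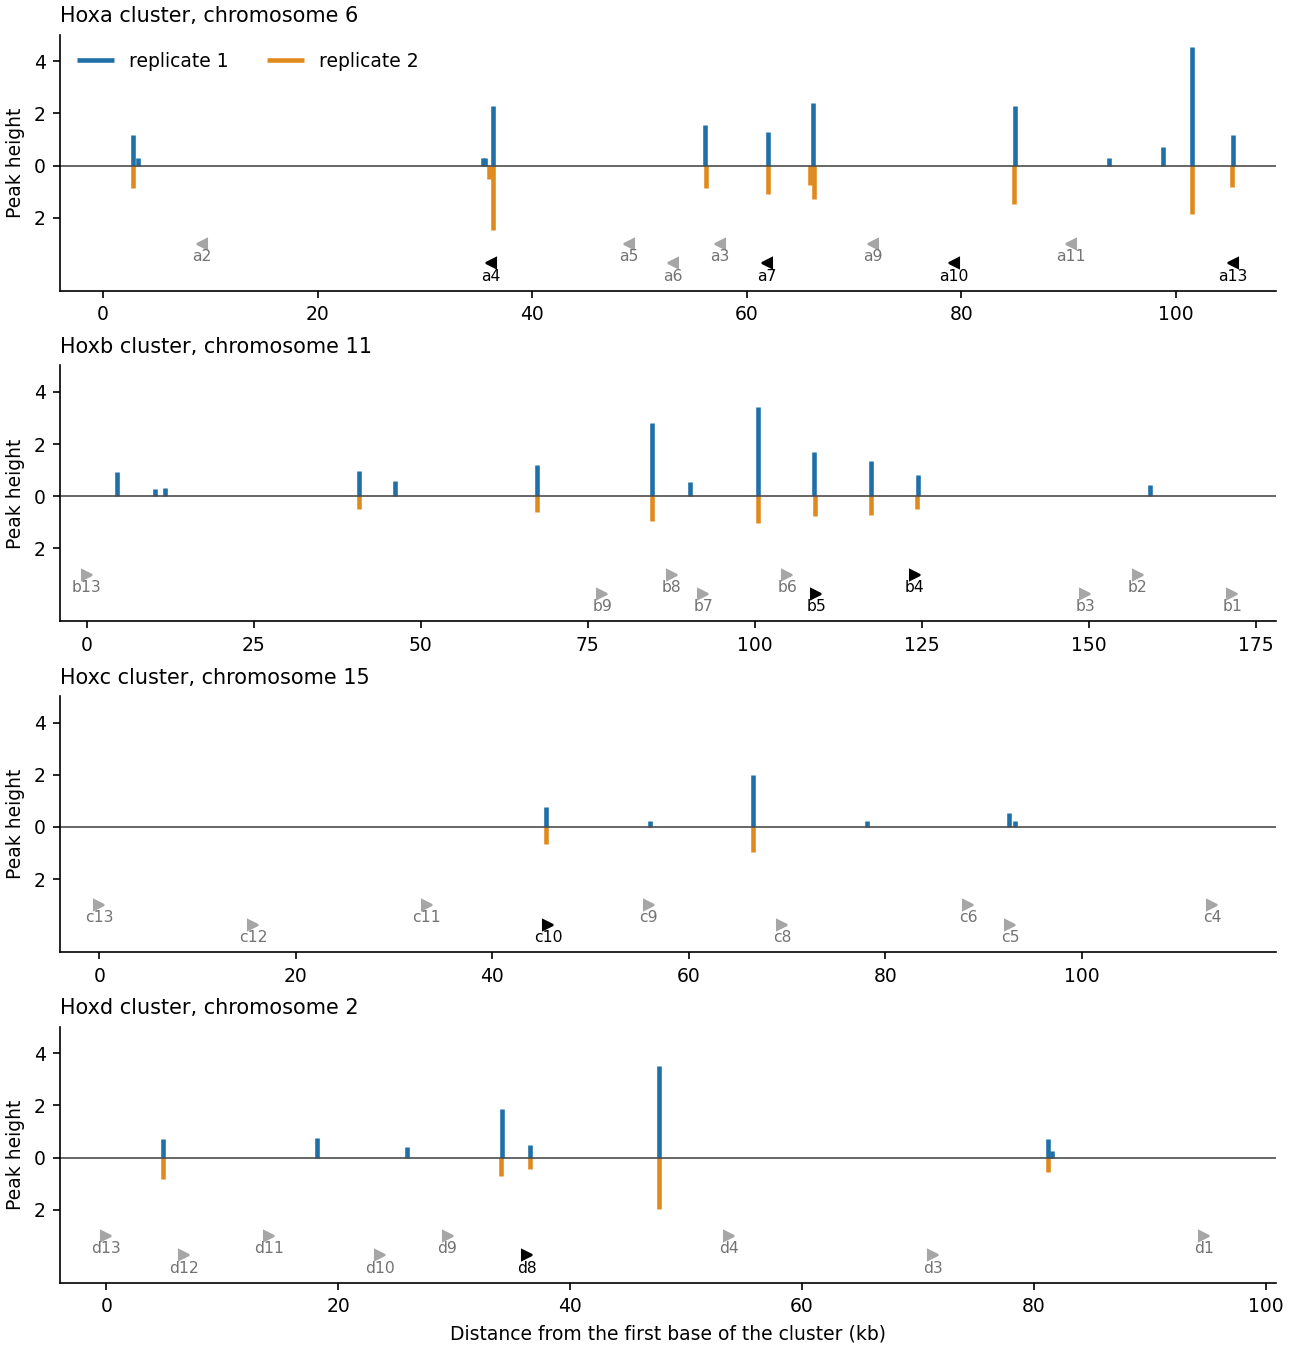
Peaks across each cluster, with height upwards for replicate 1 and downwards for replicate 2, against the distance from the first base of the cluster in kb. Triangles mark the start of the principal transcript of each gene named in the text and point in its direction, black where the gene had a promoter peak in both libraries and grey otherwise. The highest peaks of Hoxa, Hoxb and Hoxd in replicate 1, at 4.56, 3.42 and 3.51, stand away from the triangles, and the region between Hoxc13 and Hoxc10 is empty.

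The highest peak of any cluster in replicate 1 lay near the Hoxa13 end, at chr6:52257041-52257220, with a height of 4.56 in replicate 1 and 1.84 in replicate 2. It lies in the exon of the annotated transcript 9530018H14Rik, 240 bp from its start and 3582 bp from the nearest Hoxa13 start. The second lay in Hoxd, at chr2:74715841-74716040, with 3.51 and 1.97. It covers 1 of the starts of the antisense gene Hoxd3os1 inside an intron of long Hoxd3 and Hoxd4 transcripts. The third lay in an intron of Hoxb6, at chr11:96294641-96294800 and 2165 bp from a Hoxb6 start, with 3.42 and 1.04. Each of the 3 was taller than any Hox promoter in replicate 1. In replicate 2 the Hoxa4 promoter, at 2.47, was the tallest peak of all 4 clusters.

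Further high peaks lay away from Hox promoters. Between Hoxb9 and Hoxb8, at chr11:96278861-96279060, the height was 2.80 in replicate 1 and 0.962 in replicate 2. In Hoxc the highest peak, at chr15:102987541-102987700, lay in an intron of the long Hoxc5 transcript and 2907 bp from a Hoxc8 start, with 1.99 and 0.973. Between Hoxd9 and Hoxd8, at chr2:74702321-74702500, it was 1.88 and 0.707. These 3 places are shared by both libraries and are lower in replicate 2.

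Some non-coding genes inside the clusters also had a peak within 500 bp of a start. Gm53 in the Hoxb13 to Hoxb9 interval had 1.20 and 0.585. Mir615, inside Hoxc5, had 0.232 in replicate 1 and none in replicate 2. That peak lies in a coding exon of Hoxc5, 448 bp from a Hoxc5 start, and also counts as a Hoxc5 promoter peak. No peak lay at a start of Hotair, of Hoxaas2, Hoxaas3, Hoxb5os and Hoxb3os, transcribed against the Hox genes, or of Mir10a, Mir10b, Mir196a-1, Mir196a-2 and Mir196b.

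Just outside the clusters, the homeobox neighbours had no promoter peak, while most other neighbours did. Evx1 beside Hoxa13 and Evx2 beside Hoxd13, homeobox genes of the same ancestral array, had no promoter peak in either library. The next genes outward were open: Hibadh stood at 13.6 and 13.04 beyond Evx1, and Lnpk at 3.97 and 4.79 beyond Evx2. Skap2, the nearest protein-coding gene on the other side of the Hoxa cluster, stood at 11.6 and 12.8, above any Hox promoter. On the other sides Calcoco1 stood at 8.28 and 5.35, Smug1 at 5.56 and 4.45, Mtx2 at 1.55 and 1.76 and Skap1 at 2.57 and 1.68. Ttll6, next to Hoxb13, had 0.492 in replicate 1 and none in replicate 2.

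Footprints numbered 98 and 52 across the clusters, or 19.9 and 10.6 per 100 kb, against 18.2 and 8.74 in the flanks and 13.8 and 7.71 in the genome. Per kb of peak sequence the clusters had 12.9 and 11.4, against 10.5 and 12.5 in all peaks. Hoxa had 24 in replicate 1 and 26 in replicate 2, the one cluster with no fewer in replicate 2. Hoxb had 42 and 12, Hoxc 12 and 4, and Hoxd 20 and 10.

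Cluster peaks were searched on both strands for a few short motifs, and the share with at least 1 match among those of 150 to 300 bp, 33 in replicate 1 and 19 in replicate 2, was set beside that of all peaks of the same widths. GC boxes (GGGCGG), which Sp-family factors bind, occurred in 33.3% of cluster peaks in replicate 1 and 36.8% in replicate 2, against 16.8% and 28.1% of all peaks. Among cluster peaks of any width, they occurred in 57.1% and 50% of those at Hox promoters and in 19.2% and 16.7% of the others. The peaks compared were not matched for G and C content. RUNX motifs (TGTGGTT), common in T cell enhancers, occurred in 0 of 33 and 0 of 19 cluster peaks, against 8.77% and 6.61%. E-boxes (CAGCTG), bound by T cell basic helix-loop-helix factors, occurred in 6.06% and 10.5%, against 17.0% and 19.5%. ETS motifs (CCGGAAG) occurred in 6.06% and 0%, against 4.65% and 7.20%. The HOX-PBX motif (TGATTNAT) occurred in 0 of 33 and 0 of 19, against 1.60% and 0.988%, and the homeodomain core (TAATTA) in 3.03% and 0%, against 2.45% and 1.19%. The 6-base GC box and E-box can overlap other matches, and a match says only that the letters are there.

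The CTCF core, 12 bases long, was searched by name with at most 1 mismatch. It occurred in 5 cluster peaks in either replicate, or 15.2% and 26.3% of those of 150 to 300 bp, against 27.2% and 22.4% of all peaks. The 5 places were the same in both libraries. All 5 are shown. Each was touched by a footprint in both replicates, as were 86.7% and 90.1% of such matches in all peaks. Each line gives 30 reference bases on the strand of the match, with the core in capitals.
Hoxa7 promoter: aagaaaattCCAGGAGATGGCagtgtggct
Hoxa10 outer start: tcgcagccgCCACGAGATGGCgcactcccg
Hoxb9 to Hoxb8: gcacagtggCCGCTAGATGGCatccttgct
Hoxd13 to Hoxd12: gccaaacgcCCAGGAGATGGCgagcgtgct
Hoxd9 to Hoxd8: cgcatttggCCACTAGAGAGCgctgttgct

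The cores lie at chr6:52221809-52221820, chr6:52240541-52240552, chr11:96278948-96278959, chr2:74673178-74673189 and chr2:74702395-74702406. Those of Hoxa7, Hoxa10 and the Hoxd13 to Hoxd12 interval are on the minus strand, and the others on the plus strand. The Hoxa7 core lies in the peak at the outermost Hoxa7 start, and the peak at its principal start held no such core. In replicate 1 all 5 cores lay wholly inside a footprint. In replicate 2 the Hoxa7 core was covered over 11 of its 12 bases and the other 4 wholly. Over all peaks 72.9% and 72.6% of matches were covered wholly. The peak between Hoxd13 and Hoxd12 had heights of 0.706 and 0.840, and the one between Hoxd9 and Hoxd8 lies next to the one gene of that cluster with a promoter peak.

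With 2 mismatches allowed, a setting added after the data were seen, 20 of 33 and 16 of 19 cluster peaks of those widths held a match, or 60.6% and 84.2%, against 49.6% and 46.8% of all peaks. Of 25 such places in the clusters, 8 lay wholly inside a footprint in both replicates. Peaks with a wholly covered match made up 42.4% and 36.8% of these cluster peaks, against 27.4% and 23.0% of all peaks. With at most 1 mismatch such peaks made up 15.2% and 21.1%, against 20.2% and 16.7%, which is lower in replicate 1. Counted per match with 2 mismatches, 63.6% and 38.9% were covered wholly, against 48.4% and 43.1%, which is lower in replicate 2. Besides 4 of the 5 above, the 8 are the following 4, shown in the same way because 3 of them are in the highest replicate 1 peak of their cluster.
9530018H14Rik exon: agcttgtcaACACGAGGTGGCgcccttgat
Hoxb6 intron: cccgaacggACGGTAGATGGCagcaaactg
Hoxb5 promoter: cgtcaatcgCCGGGAGGTGGCgcgctctgc
Hoxd3os1 start: gagctttgtCCAGGAGGAGGCgctgtagga

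These cores lie at chr6:52257121-52257132 on the plus strand, chr11:96294698-96294709 on the minus strand, chr11:96303245-96303256 on the plus strand and chr2:74715921-74715932 on the plus strand. The Hoxb5 core can be seen inside the longest capital run of the Hoxb5 promoter printed above. The highest Hoxc peak, near Hoxc8, holds a match that no footprint touched in either library. CTCF binding itself was not measured here.

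The proteins that work with Hox factors or act on Hox chromatin were open at their own promoters, unlike most Hox genes. All 9 cofactor genes of the Pbx, Meis and Pknox families had a peak in both libraries, with Pknox1 at 15.0 and 15.8, Pbx4 at 8.92 and 10.3 and Pbx3 at 7.43 and 5.96. Meis1 and Meis2 were low, at 0.776 and 0.718 and at 0.284 and 0.510. All 15 activating regulators had one in both, with Mllt1 at 11.2 and 16.8, Dot1l at 10.1 and 13.1 and Mllt3 at 8.48 and 11.6. Of 22 Polycomb genes 22 had one in replicate 1 and 21 in replicate 2, with Cbx8 at 13.2 and 17.3, Phf19 at 13.7 and 16.6 and Pcgf1 at 13.5 and 12.2. The exception was Pcgf2, at 0.811 in replicate 1 and none in replicate 2. All 5 genes of CTCF and cohesin had one in both, with Smc3 at 12.9 and 14.6. Most of these genes have CpG-rich promoters, 14 of the 15 activating regulators and 21 of the 22 Polycomb genes among them, and 92.9% and 88.1% of CpG-rich genes outside the Hox clusters had a peak in any case. Of the 9 cofactor genes 5 are CpG-rich. These genes also have more starts at which a peak counts. The median number was 9 for cofactors, 7 for activating regulators and for Polycomb genes, and 5 for CTCF and cohesin. For Hox genes it was 2.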

How the data were processed

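Per library the authors deposited peaks in a larger and a smaller file, footprints, and the FDR (false discovery rate) of local cutting, with mm10 coordinates according to the README that accompanies each sample. That README derives the peaks from the library's own alignments plus another input, so replicates were not pooled. The signal deposited by the authors in the peak files is the peak height, a scaled value that is never negative. The p-value or q-value column deposited by the authors is an FDR, listed under 0.05, and the footprint list carries the constant 0.01. The aligner, the callers, their versions and thresholds, the number of reads and any correction for the sequence preference of DNase I are not given in the sources used here, so depth is unknown and the number of peaks is the guide to it.

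The larger peak file of each library was used, and every peak was counted. Genes and starts came from GENCODE M21 and sequence from GRCm38.p6, after a check that both use the chromosomes of the files at matching lengths. Coordinates are 1-based, and overlap was counted from 1 bp. A gene's promoter height is that of the highest peak within 500 bp of any start. The principal transcript is the one the annotation tags as such, and the first by name where there are several. Flanks are as long as the cluster on each side. Scripts ran in Python 3.11.15 with numpy 2.4.6, pandas 2.3.3 and pysam 0.24.0, and were tested on simulated data. The members, the lists and the comparison sets were chosen with earlier results of these data known. The values of 2 genes, 1 of them a member, and 1 promoter sequence are not reported here, though the genes are in the counts. The other members with a promoter peak are named with both heights and the others by symbol, and of the regulator lists the 3 with the highest mean height, exceptions, and Meis1 and Meis2, chosen after their values were seen. Alternatives were the smaller peak file, windows of 250 and 1000 bp, other choices of start, equal numbers of peaks, peaks at or above the median height, joined peaks and each replicate alone.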

Additional observations from a re-analysis of the deposited data

How the results depend on the processing

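Of 92 alternative values for 17 results, 74 stayed within 1.5 times the value reported or, for a share, within its counting interval, and 18 did not. The 9 Hox genes with a promoter peak in both replicates became 7 with the smaller peak files, without Hoxb4 and Hoxd8, and 10 with a window of 1000 bp, which adds Hoxc5 through the replicate 2 peak at the Hoxc10 promoter. They became 8 with a window of 250 bp, without Hoxb4, 8 with equal numbers of peaks, without Hoxd8, and 8 with principal starts, without Hoxa10. With peaks at or above the median height 5 remained, all in Hoxa. Small counts moved most. Hoxb, with 2 genes, had 1 with the smaller files, 1 with the window of 250 bp and 0 with peaks at or above the median height. Hoxc, with 1 gene, had 2 with the window of 1000 bp and 0 with peaks at or above the median height, and between 1 and 4 in single replicates. Hoxd, with 1 gene, had 0 with the smaller files, 0 with equal numbers of peaks and 0 with peaks at or above the median height. The mean of 4 peaks across Hoxc became 2.5 with the smaller files and 2 with equal numbers of peaks, and single replicates gave 2 and 6. Mean footprints across Hoxb were 27, with 12 and 42 in single replicates, and across Hoxc 8, with 4 and 12. The 5 cluster peaks with a CTCF core in either replicate became 21 in replicate 1 and 17 in replicate 2 with 2 mismatches. The cause of these moves was not tested. Hoxa kept its 5 genes in every one of these settings but principal starts, where it had 4. With 2 libraries of unequal peak number and no read depth, a gene without a peak was not detected as open, which does not show it closed. No paired analysis was possible because there is a single group.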
